A study of Capsicum annuum with 2 samples.

Results

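The 83 unigenes described here, assembled transcript sequences of chili pepper anthers, were abundant in a fertile restorer line. In a cytoplasmic male sterile (CMS) line they had far fewer reads, 0 to 1481 each. They were selected by their measured values, with at least 5000 restorer reads and a restorer RPKM at least 32 times the CMS RPKM, and 0 CMS reads also passed. RPKM is the number of reads of a unigene scaled to its length and to the counted reads of the library. The 83 make up 0.729% of the 11387 unigenes listed. At any abundance, 30.9% of all listed unigenes met the same 32-fold rule, including those that passed with 0 CMS reads and few restorer reads. The list holds only unigenes that had been called different between the lines before deposition. Since the rule used this contrast, levels and ratios of the 83 unigenes are a description and were not tested.

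The CMS line 121A and the restorer line 121C descend from 1 sterile line, whose cytoplasm they share, and were backcrossed to the inbred line 121, so that they are near-isogenic. The restorer line carries in addition a single dominant restorer gene from the cultivar "big gold bullion". Buds of 20 plants per line were sorted into 5 phases by their morphology, and RNA isolated from the anthers of each phase was pooled in equal parts into 1 library per line. No difference between the lines therefore has a replicate check, and variation among plants or phases was not measured.

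In plants with CMS, an incompatibility of the mitochondrial and the nuclear genome prevents the formation of functional pollen, and a nuclear restorer gene overcomes it. A fertile anther holds the tapetum, the nurse tissue that contributes to the pollen wall, and the developing microspores, which as maturing pollen store transcripts for germination and tube growth. Pectin methylesterases and other pectin-modifying enzymes are well-known products of late pollen, and they alter the stiffness of the pollen tube wall.

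The restorer library had 9552875 counted reads and the CMS library 10744829. In bulk anther RNA, fewer cells of a type and less RNA per cell cannot be told apart. The anther identity of the samples could not be checked on defining markers, because the annotations used here are only 1999 entries, the first by name (comp10005_c0_seq1 to comp2341_c0_seq1). Of these entries 2 have a pollen or tapetum keyword, and 0 of the 2 are listed. Of 5 with a photosynthesis keyword, 1 is listed, a phosphoribulose kinase unigene (comp116156_c0_seq1) with 78 CMS and 32 restorer reads.

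The protein is known here for comp62048_c0_seq1 (2031 bp), annotated as a pectin methylesterase, an enzyme that removes methyl groups from cell wall pectin. Its annotation comes from the list of 20 unigenes selected for RT-PCR, of which it is the only one among the 83, so its primers are the only sequences at hand for the group. They are shown, 5′ to 3′, because they identify the transcript whose protein is known.
comp62048_c0_seq1 forward primer: gtcacatccaacacctcca
comp62048_c0_seq1 reverse primer: tgccaatgccaacaacact
Both primers have 19 bases, and G and C make up 52.6% of the forward and 47.4% of the reverse primer. This unigene had 4 CMS reads (0.183 RPKM) and 13085 restorer reads (674 RPKM). The ratio was 3679-fold (95% Clopper-Pearson interval 1437 to 13506), or -11.85 on the log2 scale. By restorer reads it was the median unigene of the 83, at rank 42. The names of all 83 lie outside the range of the annotation entries used here, so the proteins of the other 82 were not looked up and no function is given to them.

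The wider group of pectin and cell wall genes was sparsely covered. A keyword for pectin modification, expansin, glucanase or invertase was found in 17 annotations, and 4 of these unigenes are listed. One of the 4 is the pectin methylesterase above, which was selected for its higher restorer level, and the other 3 had few reads. A putative polygalacturonase, comp218988_c0_seq1, of the enzymes that cut the pectin backbone, had 1 CMS and 17 restorer reads. An inhibitor of a xyloglucan-specific endoglucanase, comp193426_c0_seq1, had 1 CMS and 35 restorer reads. A beta expansin, comp178367_c0_seq1, a wall-loosening protein, differed in the other direction with 29 CMS and 4 restorer reads. Of these 3, 2 were thus higher in the restorer line, beside 62.0% of all listed unigenes, and none came near the abundance of the pectin methylesterase. The other 13 unigenes, with a second pectin methylesterase among them, have no values here.

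As a group, the 83 unigenes took 2353711 restorer reads, which is 24.6% of that library (95% Clopper-Pearson interval 24.6% to 24.7%). They took 6643 CMS reads or 0.0618% (interval 0.0603% to 0.0633%). Summed over the group and related to the library totals, the restorer level was 399 times the CMS level (interval 389 to 408). All intervals cover counting error only. Of the restorer reads on all listed unigenes, 43.0% fell on the group.

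**Figure D1:**
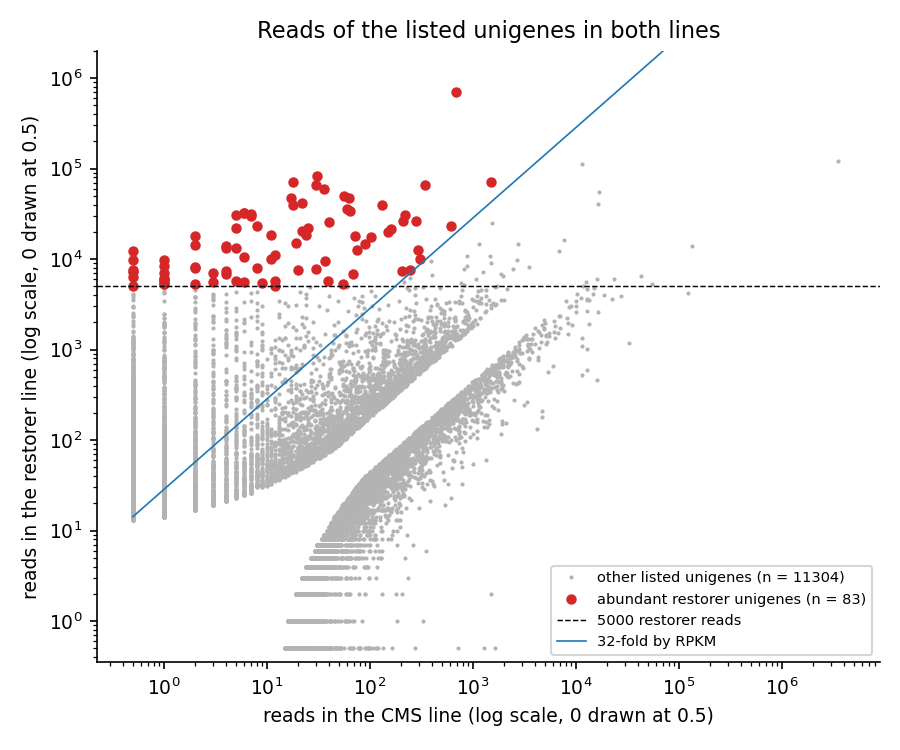
CMS reads (x axis) and restorer reads (y axis) per unigene, both on log scales with 0 drawn at 0.5, for the 83 abundant restorer unigenes (red) and all other listed unigenes (grey). The dashed line marks 5000 restorer reads and the blue line a 32-fold difference in RPKM. The band along the diagonal is empty because the list holds only unigenes that had been called different.

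A single short unigene dominated the group. For comp38608_c0_seq1 there were 701590 restorer reads, 7.34% of the library and 29.8% of the reads of the group, and 686 CMS reads. It was the most abundant of all listed unigenes in the restorer library. With 216 bp it was also the shortest of the 83, and its restorer level of 340013 RPKM was 36.4 times the next highest. Its CMS level was 296 RPKM, and by CMS reads it stood at rank 591 of the 11387 listed unigenes. Without it, the other 82 unigenes held 17.3% of the restorer library and 0.0554% of the CMS library, a ratio of 312 (interval 304 to 320).

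The next 9 unigenes by restorer reads took 5.88% of the restorer library together. The first of them, comp61834_c0_seq1, had 83709 restorer and 31 CMS reads, and comp61841_c1_seq1 had 71402 and 18. For comp58512_c0_seq1 there were 70317 restorer reads but also 1481 CMS reads, the highest CMS number of the group. It stood apart from its neighbours in the order, which kept few CMS reads. It was followed by comp38607_c0_seq1 with 66099 restorer and 30 CMS reads. For comp60315_c6_seq1 the numbers were 65810 and 343, and for comp56147_c0_seq1 they were 59844 and 36. Here, too, similar restorer reads went with different CMS reads. The last 3 of the 9 were comp61887_c0_seq1 with 50075 restorer and 56 CMS reads, comp27057_c0_seq1 with 47511 and 63, and comp61851_c0_seq1 with 46671 and 17. By restorer RPKM, which takes length into account, comp58512_c0_seq1 (9329 RPKM) and comp38607_c0_seq1 (7999 RPKM) came directly after comp38608_c0_seq1.

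**Figure D2:**
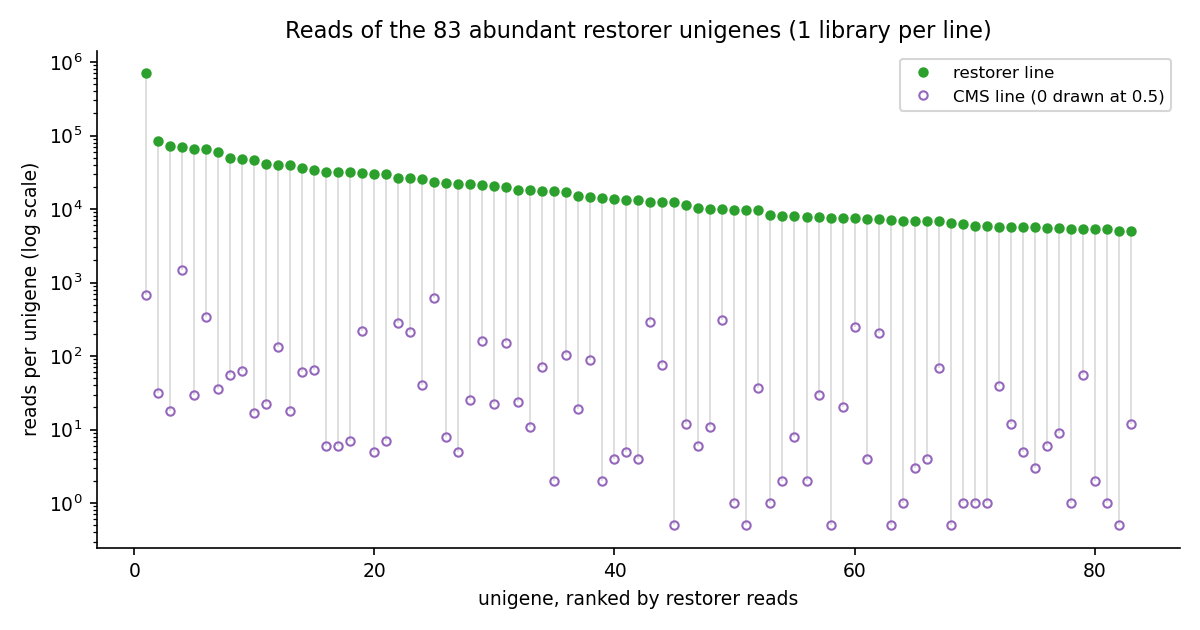
Restorer reads (filled) and CMS reads (open, 0 drawn at 0.5) of each of the 83 unigenes on a log scale, ranked by restorer reads, with 1 library per line. After the first unigene, restorer reads decline gradually from 83709 to 5060, whereas CMS reads range from 0 to 1481 and differ widely between neighbours in rank.

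Below these, the reads declined gradually. The restorer reads of the 83 unigenes had a median of 13085 (quartiles 7232.5 and 28243.5) and a lowest value of 5060. There were 8 unigenes with at least 50000 restorer reads, 22 with 20000 to under 50000, 19 with 10000 to under 20000 and 34 with 5000 to under 10000. These classes held 12.2%, 7.13%, 2.85% and 2.42% of the restorer library. The first 9 unigenes sufficed for 50% of the reads of the group. The restorer level ranged from 218 to 340013 RPKM with a median of 969 RPKM, and 40 unigenes reached 1000 RPKM. For comparison, the median restorer level of all listed unigenes was 6.32 RPKM.

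**Figure D3:**
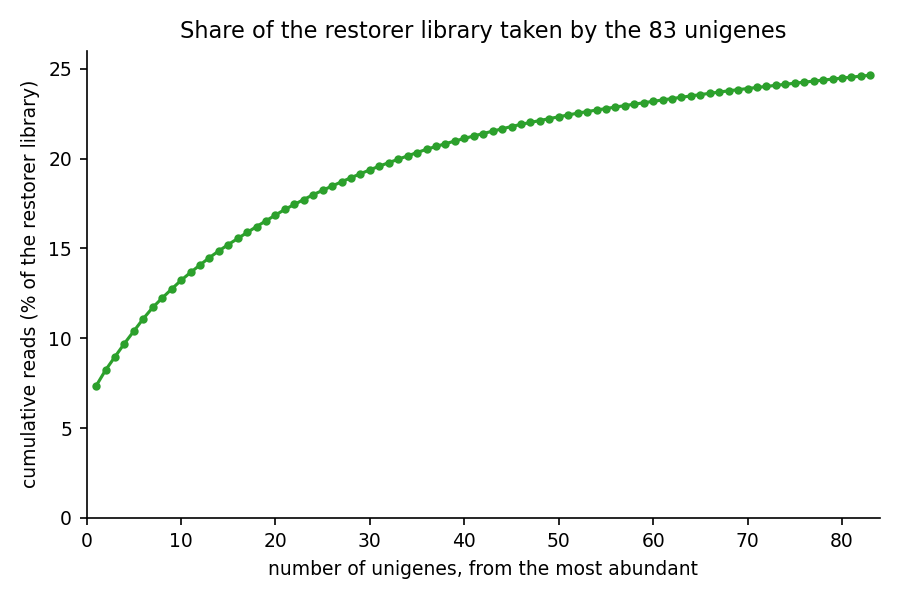
Cumulative reads of the 83 unigenes as a percentage of the restorer library, added from the most to the least abundant. The curve starts at 7.34% with comp38608_c0_seq1, reaches 13.2% at the 10th unigene and ends at 24.6%.

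The CMS reads left for each transcript varied widely. The group had a median of 12 CMS reads (quartiles 3.5 and 61.5). No CMS read was found for 6 unigenes, 1 to 3 reads for 15, 4 to 9 for 17, 10 to 99 for 30 and at least 100 for 15. The last class held 81.8% of all CMS reads of the group, and the 3 unigenes with most CMS reads alone held 41.9%. These were comp58512_c0_seq1 with 1481 reads, comp38608_c0_seq1 with 686 and comp26962_c0_seq1 with 617.

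The 6 unigenes without a CMS read were not the most abundant of the group. They had 5076 to 12414 restorer reads, and each of the 8 unigenes with at least 50000 restorer reads had at least 18 CMS reads. With 12414 restorer reads (688 RPKM), comp59916_c12_seq1 was more abundant in the restorer library by at least 4654-fold, taking its 0 CMS reads as the 3 that a count of 0 allows. By the same floor, comp26913_c1_seq1 with 9741 restorer reads was at least 3652-fold higher and comp60307_c0_seq1 with 7595 at least 2848-fold higher. The bounds were lower for comp58638_c0_seq1 (7174 restorer reads, at least 2690-fold), comp38541_c0_seq1 (6363 reads, at least 2386-fold) and comp26909_c0_seq1 (5076 reads, at least 1903-fold). These bounds follow the restorer reads, so they do not rank the 6 unigenes by how much was lost.

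At the other end, 6 unigenes had a ratio with an upper limit under 100-fold. The largest remainder relative to the restorer reads was that of comp26903_c0_seq1 with 245 CMS and 7536 restorer reads, or 3.25%. The next were comp49481_c0_seq1 with 307 and 10074 reads (3.05%) and comp62243_c0_seq1 with 207 and 7291 reads (2.84%). Their ratios of restorer over CMS level were 34.6 (95% Clopper-Pearson interval 30.5 to 39.5), 36.9 (32.9 to 41.5) and 39.6 (34.5 to 45.7), and the intervals overlap. That of comp26903_c0_seq1 is the only one of the 83 that extends below 32-fold. By contrast, comp54728_c0_seq1, with 17784 restorer and 2 CMS reads, had a ratio of 10001 (interval 2768 to 82592), which does not overlap the intervals of these 3.

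Over the 83 unigenes the log2 ratio of CMS over restorer level had a median of -10.86 (quartiles -12.26 and -8.31) with 0 reads set at 0.5 read. With fewer than 3 CMS reads taken as 3, the median was also -10.86. As a point value, the ratio was 32- to 100-fold for 6 unigenes, 100- to 1000-fold for 27 and 1000- to 5000-fold for 30. It was 5000-fold or more for 14, which had 1 to 7 CMS reads. For none of these 14 did the whole interval lie above 5000-fold, and the highest lower limit was 2934-fold (comp61861_c0_seq1). Counting error therefore does not separate them from the class below. The 6 without a CMS read are in none of these classes, as their ratios have only a lower bound. Against the floor of 3 reads these bounds were 1903- to 4654-fold. The lower limits of their Clopper-Pearson intervals were lower, at 1547- to 3785-fold. For 37 unigenes the whole interval lay above 1000-fold. Across the 83 unigenes, which share both libraries and were selected on these values, CMS reads and restorer reads had a Spearman rho of 0.51.

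Some of the 83 unigenes kept a measurable CMS level. In the CMS library 39 had at least 1 RPKM, 8 at least 10 RPKM and 2 at least 100 RPKM. The median CMS level of all listed unigenes was 3.07 RPKM, and 23 of the 83 lay above it. The highest CMS levels were 296 RPKM for comp38608_c0_seq1, 175 RPKM for comp58512_c0_seq1 and 63.6 RPKM for comp26962_c0_seq1. Their restorer levels were 340013, 9329 and 2678 RPKM.

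The values on either side of the thresholds form no gap. Just inside the read minimum were comp38630_c0_seq1 with 5060 restorer and 12 CMS reads and comp26909_c0_seq1 with 5076 and 0. Just outside it were comp38574_c0_seq1 with 4995 and 0 and comp38624_c0_seq1 with 4916 and 26. The unigenes nearest to 32-fold from above were comp26903_c0_seq1 and comp49481_c0_seq1. From below they were comp62135_c0_seq1 with 5520 restorer and 212 CMS reads (29.3-fold, interval 25.5 to 33.8) and comp62113_c0_seq1 with 6203 and 245 (28.5-fold, interval 25.1 to 32.5). The intervals of comp26903_c0_seq1 and comp62135_c0_seq1 overlap, so the order of these neighbours is within counting error.

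In total, 117 listed unigenes reached 5000 restorer reads, and 109 of them (93.2%) were higher in the restorer line, beside 62.0% of all listed unigenes. The 109 include the 83, which are higher there by the rule, and a minimum of restorer reads itself favours this direction. The 83 are 70.9% of the 117. Among the 10 most abundant listed unigenes of the restorer library 7 belong to the group, among the first 20 there are 16 and among the first 50 there are 41. The other 34 abundant unigenes held 6.26% of the restorer library. Of these, 26 had a higher restorer level and 8 a higher CMS level.

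From 100 restorer reads on, the share of listed unigenes with at least a 32-fold difference was larger in the classes with more restorer reads. It was 25.9% at 100 to under 500 restorer reads (682 of 2632), 26.7% from there to under 1000 (169 of 633), 31.4% to under 2000 (122 of 388), 42.2% to under 5000 (97 of 230) and 70.9% from 5000 reads on. Unigenes that were not listed or had under 100 restorer reads are missing from these denominators. Over all listed unigenes, at any restorer reads, the share was 30.9%, which is above that of the classes under 1000 reads. The classes are cut on restorer reads, which also enter the ratio, so the larger shares are a description only. With the lines exchanged and the counted totals, the rule selected no unigene. A CMS RPKM at least 32 times the restorer RPKM was found for 3.01% of all listed unigenes, at any abundance and with 0 restorer reads passing. The share was 0.868% at 100 to under 500 CMS reads (18 of 2074) and 0.233% from there to under 1000 (1 of 429). It was 1.33% to under 2000 (3 of 225) and 0.00% to under 5000 (0 of 99). Of 61 listed unigenes with at least 5000 CMS reads, 0 (0.00%) had such a difference. The nearest was comp60228_c1_seq1 with 16006 CMS and 465 restorer reads, a ratio of 30.6 (interval 27.9 to 33.6), so the 0 is within counting error of the threshold. It also depends on the scaling, since a single unigene, comp48143_c0_seq1, took 32.3% of the CMS library. With the top 10 unigenes of either library left out of its total the number was 4, and with totals without the 83 unigenes and comp48143_c0_seq1 it was 1.

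In length the 83 unigenes spanned 216 to 4526 bp, with quartiles of 989, 1403 and 1979 bp, and 21 were shorter than 1000 bp. Lengths were not used by the rule, although longer unigenes collect more reads. The other 34 abundant unigenes had a median of 2009 bp (quartiles 1452 and 3020), and all listed unigenes had one of 865 bp. After comp38608_c0_seq1, the shortest were comp38610_c0_seq1 (562 bp, 10103 restorer and 11 CMS reads) and comp61916_c0_seq1 (586 bp, 9577 and 37 reads). The longest were comp59618_c1_seq1 (4526 bp, 30738 and 219 reads), comp38588_c1_seq1 (4104 bp, 12469 and 292 reads) and comp56002_c4_seq1 (3786 bp, 26385 and 279 reads). Among these extremes the longest unigenes had more CMS reads than comp38610_c0_seq1 and comp61916_c0_seq1. The exception was comp38608_c0_seq1, which had the most with 686 at 216 bp. Length and restorer reads had a Spearman rho of 0.25 over the 83 unigenes, and length and CMS reads one of 0.30.

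**Figure D4:**
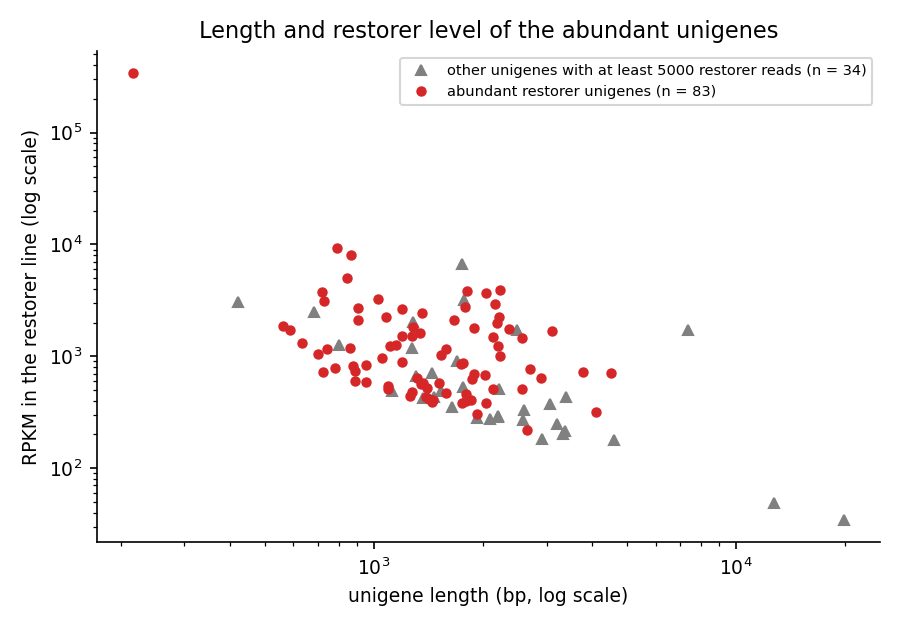
Length (x axis, bp) and restorer level (y axis, RPKM), both on log scales, of the 83 unigenes (red circles) and the 34 other listed unigenes with at least 5000 restorer reads (grey triangles). The unigene comp38608_c0_seq1 stands apart at 216 bp and 340013 RPKM, and the other 82 lie between 562 and 4526 bp.

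Trinity, the assembler, names a unigene by its component, a cluster of sequences joined by shared stretches, followed by a part of that component and a sequence number. The 83 unigenes came from 82 components. The only component with 2 of them was comp26913. Its part comp26913_c0_seq1 (632 bp) had 7866 restorer and 2 CMS reads, and comp26913_c1_seq1 (1052 bp) had 9741 and 0. Both parts were thus nearly without CMS reads, and whether they belong to a single gene is not known here. In all, 17 of the 83 (20.5%) shared their component with any listed unigene, beside 2273 of all 11387 listed unigenes.

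Apart from comp26913, 15 components held 1 of the 83 unigenes and 25 other listed unigenes, which the rule did not select. These 25 had a median of 504 bp and 341 restorer reads. Of the 25, 17 (68.0%) were higher in the restorer line, beside 62.0% of all listed unigenes, a share near the background. The 32-fold rule, which 0 CMS reads pass at any restorer reads, was met by 11 (44.0%), beside 30.9% of all listed unigenes. Of these 11, 8 had no CMS read. Taking 0 CMS reads as 3, the difference was at least 24.0-fold for comp61841_c0_seq1, 12.7-fold for comp56002_c3_seq1 and 8.62-fold for comp59916_c6_seq1. For these unigenes 32-fold is therefore not shown. The unigene comp56002_c2_seq1 was at least 38.2-fold higher by this floor, but the lower limit of its interval was 30.5-fold. How reads that match several unigenes were counted is not given in the sources used here, so unigenes of a component may share reads.

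In some components another unigene also had few CMS reads. There were 4145 restorer and 0 CMS reads of comp38609_c0_seq1, beside 14144 and 2 of comp38609_c1_seq1. In the same way comp53037_c1_seq1 had 4332 and 8 reads, comp38549_c1_seq1 had 1977 and 2, and comp60307_c1_seq1 had 625 and 0. In 6 components, however, at least 1 other unigene was higher in the CMS line. Among these components was comp53037, where comp53037_c2_seq1 had 5 restorer and 85 CMS reads (log2 ratio 3.92, interval 2.64 to 5.58). The largest CMS reads of such a unigene were in comp60315. While comp60315_c6_seq1 had 65810 restorer and 343 CMS reads, comp60315_c4_seq1 had 1130 and 3439 (log2 ratio 1.44, interval 1.34 to 1.53). The unigene comp60315_c0_seq1 was likewise higher in the CMS line with 359 restorer and 860 CMS reads, and comp60315_c2_seq1 was lower there with 4815 and 271. Summed over its 5 listed unigenes, comp60315 had a ratio of restorer over CMS level of 14.1 (interval 13.7 to 14.4) and would not reach 32-fold.

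The other summed components all had ratios of at least 46.8. In comp48170, comp48170_c1_seq1 had 39889 restorer and 131 CMS reads, whereas comp48170_c0_seq1 (366 bp) had 244 and 641 (log2 ratio 1.22, interval 1.01 to 1.44). Of the 4 listed unigenes of comp59916, comp59916_c12_seq1 had no CMS read, and comp59916_c8_seq1 was higher in the CMS line with 149 CMS and 58 restorer reads. In comp61678, 260 of the 272 CMS reads fell on comp61678_c2_seq1 and 12 on comp61678_c0_seq1, which is one of the 83. A unigene that was nearly lost thus had a neighbour in its component that was not.

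**Figure D5:**
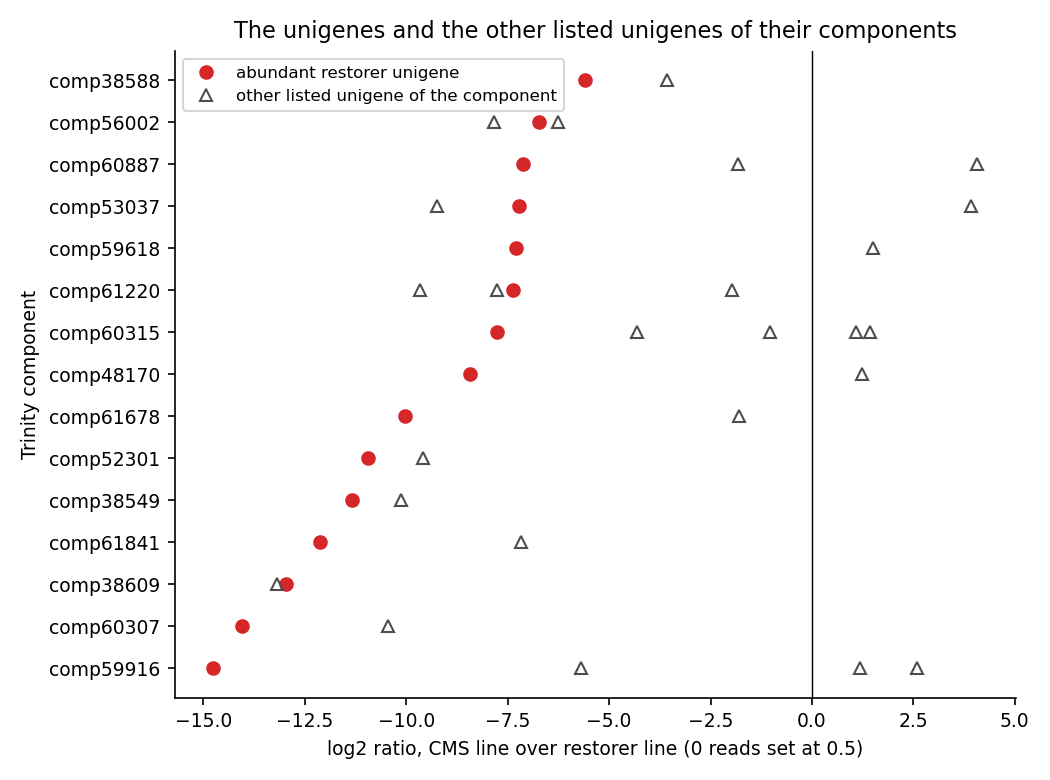
Log2 ratio of CMS over restorer level (x axis, 0 reads set at 0.5) for 15 of the 83 unigenes (red) and the 25 other listed unigenes of the same Trinity components (open triangles), by component. Triangles right of 0 are the 8 unigenes that were higher in the CMS line, in 6 components.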

How the data were processed

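RNA was sequenced from anthers of the CMS line and the restorer line (1 library each). By the paper's methods, raw data passed CASAVA and a quality filter and were assembled with Trinity. The aligner and the counting rule are not given in the sources used here. The authors deposited counts (whole reads per unigene, not normalized) and RPKM, which the authors derived from reads, unigene length and library total. Deposited log2 ratios, q-values and calls hold the authors' own comparison by the MARS method of DEGseq and were not used. Library totals and lengths were recovered from the deposited counts and RPKM (lengths within 5.47e-05 of a whole number).

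The members and lists were chosen with earlier results of these data known. With 1 library per line, a count model has no residual degrees of freedom and no test was run. Ratios are per library total with exact 95% Clopper-Pearson intervals, and the calculation was checked on simulated reads. For 0 CMS reads the fold is given against 3 reads, where the design had named the interval bound. The named unigenes are the 10 with most restorer reads, those without CMS reads, the 3 with most CMS reads and the 3 with the largest remainder, the 3 shortest and longest, the 3 highest in RPKM, those sharing a component, annotated, or next to a threshold. The non-selected unigenes of components, comp54728_c0_seq1 and comp60228_c1_seq1 were picked after their values were seen. Annotations were 1999 entries of the study's table, the first by name, and the 20 RT-PCR unigenes. Alternatives varied the thresholds, pseudocount, scaling and summing of components. Python 3.11.15, pandas 2.3.3 and scipy 1.17.1 were used.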

Additional observations from a re-analysis of the deposited data

How the results depend on the processing

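The number of unigenes followed the read minimum: it was 180 with at least 2000 restorer reads and 49 with at least 10000. It was 77 to 88 under the other alternatives (16- and 64-fold, 500 RPKM in place of reads, pseudocounts of 1 and 0.01 RPKM, totals without the top 10 unigenes, summed components), but with 500 RPKM 15 of the 83 were lost and 10 others gained. The share of the restorer library, 24.6%, became 25.2% at 16-fold, 23.3% at 64-fold, 27.8% with 2000 reads, 22.2% with 10000 reads, 24.0% with 500 RPKM, 24.56% with a pseudocount of 1 RPKM, 24.1% with totals without the top 10 unigenes and 24.15% with summed components. All these shares are of the full restorer library, so totals without the top 10 unigenes changed only which unigenes passed. The share was 17.3% without comp38608_c0_seq1, an alternative added after seeing the data. The median log2 ratio moved from -10.86 to -8.89 with a pseudocount of 1 RPKM. Totals without the top 10 unigenes raised every log2 ratio by 0.43, and the group lost 4 unigenes. Totals without the 83 unigenes and the top CMS unigene, also added after seeing the data, raised them by 0.13, and 82 unigenes passed. With the lines exchanged, the number of unigenes was 4 and 1 under these totals in place of 0, both added after seeing the data. Unigenes without CMS reads rose from 6 to 21 when at most 3 reads counted as none. With the part number included in the component name, 0 unigenes in place of 2 shared a component. No paired analysis was possible because each line had 1 library, and no library could be left out. Depth limits the ratios at few CMS reads: at 4, the interval of comp62048_c0_seq1 ran from 1437 to 13506.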

Other observations

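The component numbers of the 83 unigenes were unevenly spread. With neighbouring numbers at most 150 apart, a gap chosen after the values were seen, 57 of the 83 (68.7%) fell into 4 runs of at least 5, which together hold 278 listed unigenes. Since the runs were drawn around the 83, their share in them is fixed by the choice. Of the 34 other unigenes with at least 5000 restorer reads, 12 also lie in these runs, so the runs are not particular to the 83. The run from comp61834 to comp62481 held 24 of the 83 among 63 listed unigenes (38.1%). The runs from comp38541 to comp38744 and from comp26895 to comp27057 held 14 each among 84 and 82, and that from comp48101 to comp48217 held 5 among 49. In the first of these runs, restorer reads and component number had a Spearman rho of -0.88 over 24 unigenes, which share 1 library and 1 assembly. The first unigene, comp61834_c0_seq1, had 83709 restorer reads and the last, comp62481_c0_seq1, had 7840. In the other runs, in the order given, rho was -0.25, 0.40 and -0.60. The pectin methylesterase unigene comp62048_c0_seq1 lies in the first run. All 63 listed unigenes of this run had a median of 4446 restorer and 151 CMS reads, and 47 of them were higher in the restorer line. Both the medians and the 47 include the 24 selected unigenes, which have many restorer reads and are higher there by the rule. Of all listed unigenes, 62.0% were higher in the restorer line. Component numbers are given by the assembler and are no genome positions.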
